A study of Mus musculus with 12 samples.

Results

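The T cells of SCC32 tumours were compared between day 20 and day 10. Members came from the SCC32 library. A cell needed 300 or more detected genes, at most 15% mitochondrial counts, and a leading hashtag with 10 or more counts that was also 2 or more times the second. T cells among these were chosen by their measured counts: they had at least 2 unique molecular identifiers (UMIs) of Cd3e, Cd3d and Cd3g together and no Lyz2 UMI. The rule found 717 T cells among the 4197 cells assigned to these 4 tumours, 267 and 191 in the day 10 tumours and 131 and 128 in the day 20 tumours. The whole series held 3313 T cells among 57643 assigned cells.

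SCC32 is 1 of 5 melanoma lines in the study, and the authors' hashtag table lists it as non-rejected. The tumours grew in mice, were dissociated, tagged with hashtag antibodies and sorted for live cells before droplet sequencing of the 5′ end of polyadenylated RNA. Day 10 and day 20 had 2 tumours each, every one from a mouse of its own. Both day 10 mice and the mouse of day 20 tumour 1 were listed under cage 2, and the mouse of day 20 tumour 2 under cage 5. The sources used here do not give the strain, genotype, age or sex of the mice or any treatment. All 4 tumours were in 1 library, so the days were not split over sequencing libraries.

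T cells recognise antigen through a receptor that signals through the CD3 chains. CD8 T cells bind antigen on class I molecules and can kill the cell that shows it, with granzymes and perforin. CD4 T cells bind antigen on class II molecules and act through cytokines and surface ligands. Regulatory T cells are a CD4 class that expresses Foxp3 and restrains the others. Repeated stimulation in tumours is known to raise inhibitory receptors such as PD-1 on both classes.

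The hashtag sequences below decided which tumour each cell was counted in. They are shown 5′ to 3′ with capitals at positions where a base occurred in that hashtag alone among the 4.
day 10 tumour 1: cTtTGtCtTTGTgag
day 10 tumour 2: tAtGCtgCCacGgTA
day 20 tumour 1: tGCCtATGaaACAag
day 20 tumour 2: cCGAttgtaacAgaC
Each is 15 bases long, and any pair differed at 10 to 13 positions.

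The T cell label held on markers that the rule did not use. Trac, the constant segment of the receptor alpha chain, was at 459 and 397 CPM (counts per 1000000 UMIs of the sum) in the day 10 sums and at 330 and 530 CPM in the day 20 sums. In cells of the same tumours without a UMI of Ptprc, Cd3 or Lyz2 it was at 2.50 CPM. Lck, the kinase that starts receptor signalling, was at 412 and 323 CPM at day 10 and at 352 and 373 CPM at day 20. The B cell genes Cd79a and Ms4a1 were at 0 in all 4 sums. The melanocyte genes Mlana, Pmel, Tyr and Dct were also at 0 there, and Mlana and Tyr were at 0 in every other assigned cell of these tumours as well. At the edge of the gate, 32, 34, 22 and 26 members in the order above had exactly 2 CD3 UMIs, while 36, 33, 29 and 25 cells outside it had 1. A further 11, 9, 3 and 6 cells were kept out by a single Lyz2 UMI. The median T cell had 1901 and 2254 UMIs at day 10 and 2199 and 1677 UMIs at day 20. The summed T cell counts were 725142 and 606727 at day 10 and 466123 and 345563 at day 20, so 1 count was worth between 1.38 and 2.89 CPM. Of the library's T cells, 95 (8.99%) had a barcode that also occurs in another library. Over all barcodes of the library the share was about the same, 1470 of 17089 (8.60%).

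T cells were a smaller share of the assigned cells at day 20. They made up 29.9% and 16.8% of the cells at day 10, and 12.6% and 11.4% at day 20. The groups did not overlap, but the day 10 tumours differed from each other by more than the lower of them differed from day 20. The mean was 23.3% ± 9.28 (SD, n = 2) at day 10 and 12% ± 0.83 (SD, n = 2) at day 20. The gate itself defines this share, and it was not tested.

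CD8 cells made up more, and CD4 cells less, of the T cells at day 20. A UMI of Cd8a or Cd8b1, which encode the CD8 coreceptor chains, was found in 9.74% and 16.8% of T cells at day 10. At day 20 it was found in 39.7% and 69.5%. Exact binomial 95% intervals ran from 6.46% to 13.9% and from 11.8% to 22.8% at day 10, and from 31.3% to 48.6% and from 60.8% to 77.4% at day 20, and they cover counting error only. The means were 13.2% ± 4.96 (SD, n = 2) and 54.6% ± 21.1 (SD, n = 2), a difference of 41.4 percentage points. A Cd4 UMI was found in 56.9% and 50.8% of T cells at day 10 and in 26.0% and 10.9% at day 20. The means were 53.9% ± 4.34 and 18.4% ± 10.6 (SD, n = 2 each). For both coreceptors the days did not overlap. With 2 tumours against 2, a two-sided exact permutation test cannot go below p = 0.333, which is the value it gave for each of the 3 shares tested (0.333 after adjustment).

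**Figure D1:**
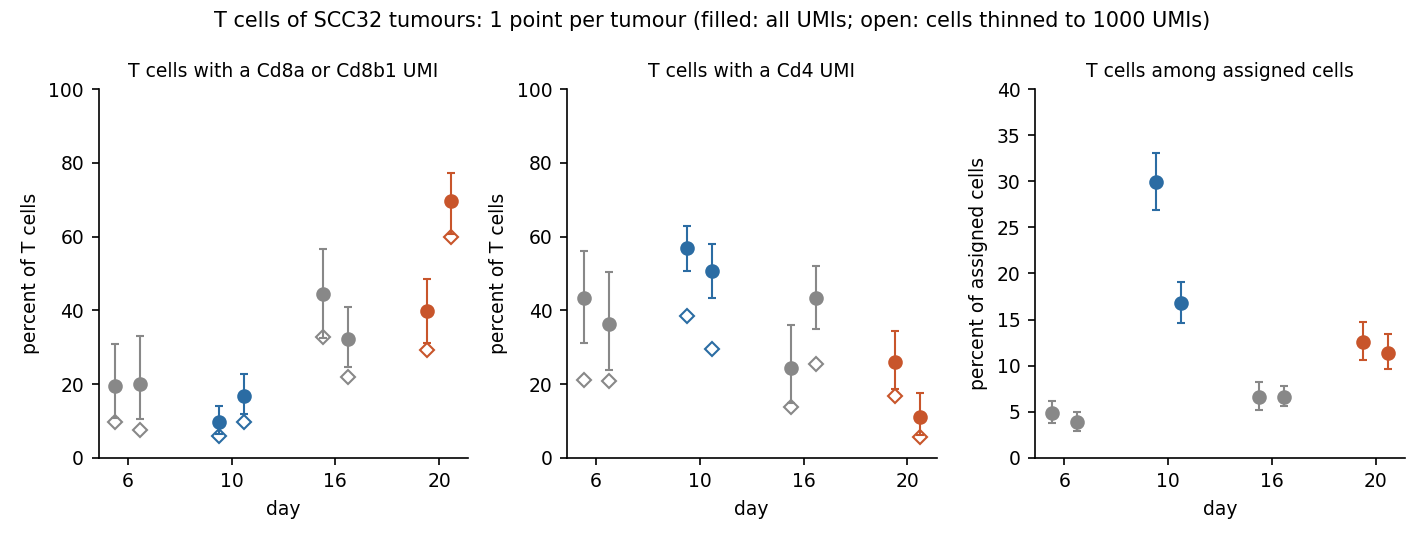
Share of SCC32 T cells with a CD8 coreceptor UMI (left), with a Cd4 UMI (middle), and share of T cells among assigned cells (right), in percent, by day. Filled points are tumours with exact binomial 95% intervals, and open points the same tumours with cells thinned to 1000 UMIs; both day 20 tumours lie above both day 10 tumours on the left (39.7% and 69.5% against 9.74% and 16.8%) and below them in the middle.

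The share with a UMI depends on how deeply a cell was read, so each cell was also thinned to 1000 UMIs and shallower cells were left out (28, 14, 11 and 23 cells). The CD8 share was then 5.86% and 9.60% at day 10 and 29.2% and 60% at day 20. The Cd4 share was 38.5% and 29.4% at day 10 and 16.7% and 5.71% at day 20. In cells without Ptprc, Cd3 or Lyz2, which should lack both coreceptors, a CD8 UMI was found in 0.54% to 0.96% of cells and a Cd4 UMI in 0% to 0.94%, at median depths of 4462 to 6072 UMIs. Neither coreceptor was detected in 34.1% and 34.6% of T cells at day 10 and in 38.2% and 19.5% at day 20.

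On the other days of the line the CD8 share was lower at day 6 than at day 16. The CD8 share was 19.4% and 20% at day 6, and 44.3% and 32.4% at day 16. The Cd4 share was 43.3% and 36.4% at day 6, and 24.3% and 43.4% at day 16. The lines SCC35 and SCC37 had both days in libraries of their own. In SCC35 the CD8 share was 20% and 12% at day 10 (10 of 50 and 3 of 25 T cells). At day 20 the share was 51.6% and 61.5% (32 of 62 and 16 of 26). In SCC37 it was 13.7% and 16.7% at day 10 (7 of 51 and 10 of 60), and 58.5% and 67.4% at day 20 (38 of 65 and 62 of 92). The difference between lines in this share was not tested, and the higher share at day 20 in SCC32 is not shown to be particular to it.

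Foxp3 was found in few CD4 cells at either day. Of cells with Cd4 and no CD8 UMI, 18 of 150 (12%) and 10 of 93 (10.8%) had a Foxp3 UMI at day 10, and 3 of 29 (10.3%) and 1 of 14 (7.14%) at day 20. The exact 95% intervals at day 20 ran from 2.19% to 27.4% and from 0.181% to 33.9%. A change in the regulatory share of CD4 cells was not detectable at this number of cells.

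Across all T cells, 75 of 6600 tested genes passed the edgeR quasi-likelihood test at an adjusted p under 0.05, 1.14% of them. Of these, 11 were higher at day 20 (0.167%) and 64 lower (0.97%). In 74 of the 75 the CPM of the 2 days did not overlap. The test used the same values, which favours this, so the count is a description. The share over all tested genes is not given here. Called genes are those past this test, and a fold change is the fitted log2 ratio of day 20 over day 10 with its standard error (SE). The sums of all T cells move with the makeup of the T cells as well as with the level per cell. The call set was sensitive to single tumours. Without day 20 tumour 2 there were 6 calls, and of the 75 genes only Cd8a, Cd8b1, Icos, Nabp1 and Tnfrsf9 were among them. Without day 10 tumour 1 there were 31, of which 27 were among the 75. DESeq2 called 28, and a fit that took its spread from all lines and libraries called 2, Cd8b1 and Nabp1.

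**Figure D2:**
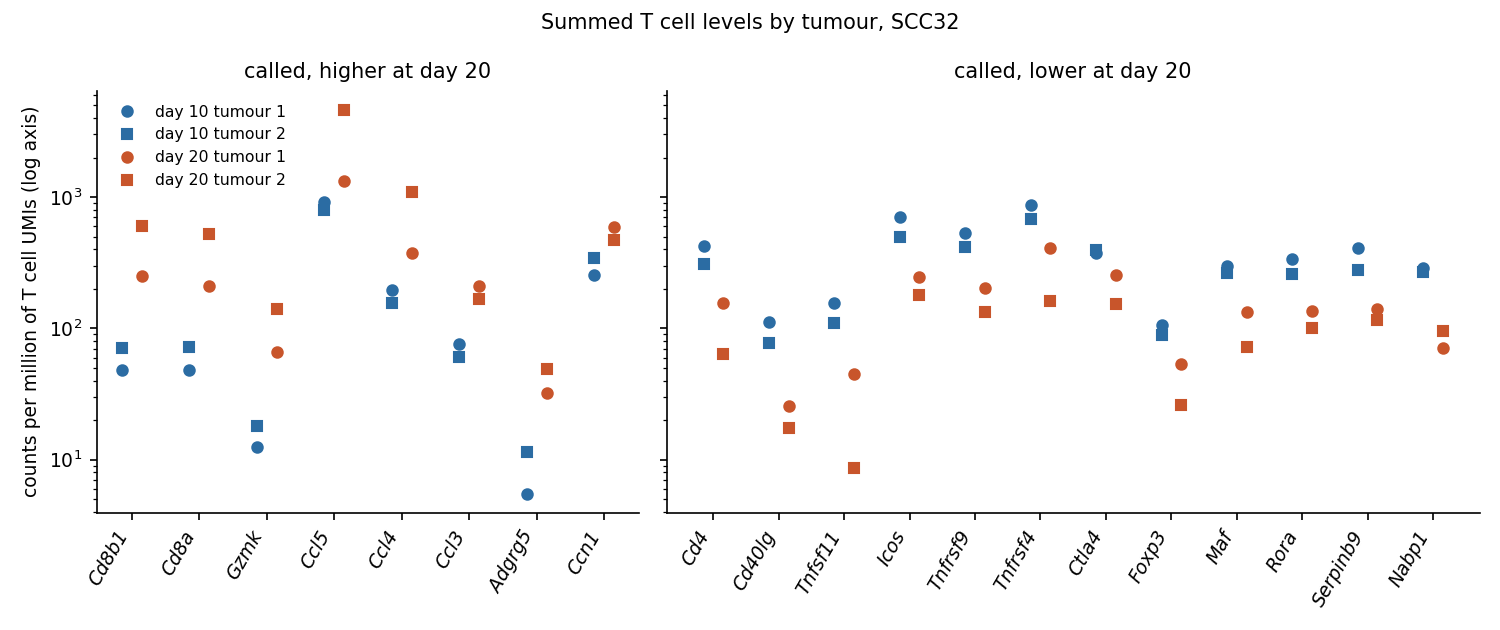
Summed T cell level of 20 called genes in CPM (log axis), for the 2 day 10 tumours (blue) and the 2 day 20 tumours (orange); circles are tumour 1 and squares tumour 2. For each gene the 2 days are separate, and Ccl5 and Ccl4 were far higher in day 20 tumour 2 (4630 and 1088 CPM) than in day 20 tumour 1 (1324 and 375 CPM).

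The coreceptor genes were among the largest changes. Cd8b1 was at 48.3 and 70.9 CPM at day 10 and at 249 and 605 CPM at day 20. Both day 20 tumours were higher, and tumour 2 was the highest. Its log2 fold change was 2.78 ± 0.34 (SE), adjusted p = 0.000193. Cd8a was at 48.3 and 72.5 CPM at day 10 and at 210 and 524 CPM at day 20 (log2 fold change 2.54 ± 0.35, adjusted p = 0.000265). Cd4 was at 425 and 310 CPM at day 10 and at 157 and 63.7 CPM at day 20 (log2 fold change -1.75 ± 0.29, adjusted p = 0.00209). These 3 were the called members of the 5 lineage genes tested.

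Of 18 tested genes of cytotoxic granules and killing, 2 rose and 3 fell, and the median log2 fold change was 0.39 against 0.02 over all tested genes. Gzmk, a granzyme found in effector memory CD8 cells, was at 12.4 and 18.1 CPM at day 10 and at 66.5 and 142 CPM at day 20 (log2 fold change 2.67 ± 0.46, adjusted p = 0.00305). It was seen in 8 and 7 cells at day 10 and in 18 and 28 cells at day 20. The chemokine Ccl5, stored by memory CD8 cells, was at 924 and 803 CPM at day 10 and at 1324 and 4630 CPM at day 20 (log2 fold change 1.73 ± 0.36, adjusted p = 0.013). The rise was small in day 20 tumour 1 and large in tumour 2. Without day 20 tumour 2 the test did not call either Gzmk or Ccl5. Serpinb9, which protects a killer cell from its own granzyme B, was at 411 and 277 CPM at day 10 and at 142 and 116 CPM at day 20 (log2 fold change -1.47 ± 0.28, adjusted p = 0.00674). Serpinb6b, a related inhibitor, fell by 1.23 on the log2 scale. Srgn, the proteoglycan core of the granules, fell by 0.95.

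The best known killing genes were not called. Gzmb, granzyme B, was at 738 and 654 CPM at day 10 and at 905 and 891 CPM at day 20 (log2 fold change 0.31 ± 0.17, adjusted p = 0.661). Prf1, the pore-forming perforin, was at 16.6 and 8.24 CPM at day 10 and at 19.3 and 52.1 CPM at day 20 (log2 fold change 1.34 ± 0.52, adjusted p = 0.405). Ifng, the cytokine interferon gamma, was at 581 and 344 CPM at day 10 and at 262 and 243 CPM at day 20, with an adjusted p of 0.119.

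Among 16 tested cytokines and chemokines, 2 rose and 3 fell, with a median log2 fold change of -0.82 in all T cells. Within the classes described below the median had the other sign. It was 0.44 in CD8 cells, with 4 of 7 tested genes positive. In CD4 cells, with 1 day 20 tumour in the fit, it was 0.90, with 9 of 15 positive. Ccl4 was at 197 and 157 CPM at day 10 and at 375 and 1088 CPM at day 20 (log2 fold change 1.98 ± 0.38, adjusted p = 0.00674). Ccl3 was at 75.9 and 61.0 CPM at day 10 and at 210 and 168 CPM at day 20 (log2 fold change 1.41 ± 0.34, adjusted p = 0.0395). Both are chemokines that draw leukocytes. Ccl4 was found in 32 and 21 T cells at day 10 and in 26 and 59 at day 20. Ccl3 was found in 14 cells of day 20 tumour 1, 1 of which held 70 of its UMIs.

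The members that fell were 2 ligands known from CD4 cells and Tgfb1, the cytokine TGF-beta. Cd40lg, the CD40 ligand with which helper cells license dendritic and B cells, was at 112 and 77.5 CPM at day 10 and at 25.7 and 17.4 CPM at day 20 (log2 fold change -2.15 ± 0.35, adjusted p = 0.00209). Tnfsf11, the ligand RANKL, was at 157 and 110 CPM at day 10 and at 45.1 and 8.68 CPM at day 20 (log2 fold change -2.26 ± 0.38, adjusted p = 0.00253). Tgfb1 fell by 1.07 on the log2 scale.

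Genes of the regulatory T cell list fell in 5 of the 15 tested members, and none rose (median log2 fold change -0.78). Foxp3 was at 106 and 89.0 CPM at day 10 and at 53.6 and 26.0 CPM at day 20 (log2 fold change -1.29 ± 0.31, adjusted p = 0.0395). Tnfrsf4, the costimulatory receptor OX40, was at 867 and 684 CPM at day 10 and at 412 and 162 CPM at day 20 (log2 fold change -1.47 ± 0.25, adjusted p = 0.00305). Ccr8, a chemokine receptor of tumour regulatory cells, was at 113 and 62.6 CPM at day 10 and at 40.8 and 14.5 CPM at day 20 (log2 fold change -1.65 ± 0.40). Il2ra, the alpha chain of the interleukin 2 receptor, fell by 1.18 and Tnfrsf18, the receptor GITR, by 0.91. These are levels over all T cells, whose CD4 share was lower at day 20. Within CD4 cells, with 1 day 20 tumour in the fit, the list's median was 0.11, with 8 of 14 tested genes positive. Within CD8 cells it was 0.20, with 5 of 6 positive.

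Of 21 tested inhibitory receptors and exhaustion genes, 2 fell and none rose, with a median log2 fold change of -0.23. Tnfrsf9, the activation-induced receptor 4-1BB, was at 531 and 420 CPM at day 10 and at 202 and 133 CPM at day 20 (log2 fold change -1.55 ± 0.22, adjusted p = 0.00032). It was found in 146 and 92 cells at day 10 and in 38 and 23 at day 20. Ctla4, an inhibitory receptor that is highest on regulatory cells, was at 378 and 392 CPM at day 10 and at 253 and 153 CPM at day 20 (log2 fold change -0.96 ± 0.22, adjusted p = 0.031).

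The other receptors were not called. Pdcd1, which encodes PD-1, was at 150 and 216 CPM at day 10 and at 142 and 194 CPM at day 20, and the days overlapped (log2 fold change -0.18 ± 0.26, adjusted p = 0.899). Lag3 was at 279 and 162 CPM at day 10 and at 146 and 104 CPM at day 20 (adjusted p = 0.266). Tigit was at 153 and 112 CPM at day 10 and at 64.4 and 119 CPM at day 20 (adjusted p = 0.532). Havcr2, which encodes TIM-3, was at 52.4 and 42.9 CPM at day 10 and at 32.2 and 55.0 CPM at day 20 (adjusted p = 0.902). Tox, a regulator of exhausted cells, was at 29.0 and 49.5 CPM at day 10 and at 60.1 and 89.7 CPM at day 20. The days did not overlap for Tox, but the adjusted p was 0.39.

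Activation genes and transcription factors gave calls in 1 direction. Of 21 tested activation genes 3 fell. Icos, a costimulatory receptor of activated and helper cells, was at 710 and 499 CPM at day 10 and at 245 and 179 CPM at day 20 (log2 fold change -1.56 ± 0.21, adjusted p = 0.000265). Nfkb1 and Rel, subunits of the transcription factor NF-kappa B, fell by 1.01 and 0.97. Of 12 tested effector transcription factors 3 fell. Maf was at 296 and 262 CPM at day 10 and at 133 and 72.4 CPM at day 20 (log2 fold change -1.47 ± 0.24, adjusted p = 0.00253). Rora fell by 1.38 and Hif1a, the oxygen-sensing factor, by 0.88.

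The stem-like and memory list held 19 tested genes, of which Satb1, a chromatin organiser of naive and young T cells, was called (log2 fold change -1.26 ± 0.29, adjusted p = 0.031). Its levels were 330 and 162 CPM at day 10 and 133 and 78.1 CPM at day 20. Tcf7, which encodes TCF1, was at 30.3 and 21.4 CPM at day 10 and at 40.8 and 34.7 CPM at day 20 (adjusted p = 0.843). Il7r, the interleukin 7 receptor, was at 92.4 and 51.1 CPM and then at 88.0 and 60.8 CPM (adjusted p = 1). Ccr7 was at 92.4 and 65.9 CPM and then at 81.5 and 86.8 CPM (adjusted p = 0.995). For Il7r and Ccr7 the 2 days overlapped.

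The receptor complex list gave 1 call among 20 tested genes. Zap70, the kinase that binds phosphorylated CD3 chains, was at 205 and 180 CPM at day 10 and at 94.4 and 83.9 CPM at day 20 (log2 fold change -1.16 ± 0.25, adjusted p = 0.0209). No gene was called among 37 tested of the cell cycle, 62 of the interferon response, 24 of glycolysis and hypoxia, 41 of oxidative phosphorylation and 23 of trafficking. Mki67, a marker of dividing cells, was at 128 and 147 CPM at day 10 and at 152 and 260 CPM at day 20 (adjusted p = 0.567). Of 16 tested dissociation and heat shock genes Ddit4 fell by 1.33, and the median of that list was 0.26.

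Of the 5 tested genes of the gamma delta list, Tcrg-C2 was called higher. Tcrg-C2, a constant segment of the gamma chain, was at 6.90 and 0 CPM at day 10 and at 27.9 and 81.0 CPM at day 20 (log2 fold change 3.66 ± 0.71, adjusted p = 0.00722). It was found in 4 and 0 cells at day 10 and in 11 and 18 cells at day 20. The gamma segments are near copies of each other, so the member counted is uncertain. In cells with a CD8 UMI and none of Cd4, Tcrg-C2 was at 28.6 and 115 CPM at day 20. The segment Trgv2 was at 4.14 and 4.94 CPM at day 10 and at 27.9 and 37.6 CPM at day 20 (log2 fold change 2.71 ± 0.63, adjusted p = 0.031).

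Variable segments of the beta chain differed from tumour to tumour. Among cells with a Trbv UMI, Trbv19 led in both day 10 tumours (20.9% and 30.2%) and in day 20 tumour 1 (18.8%), while Trbv13-1 led in day 20 tumour 2 (26.3%). Trbv17, which was called higher, was at 6.44 CPM in day 20 tumour 1 and at 165 CPM in tumour 2, against 4.14 and 8.24 CPM at day 10, so its change rested on 1 tumour.

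The largest falls outside the lists were in genes at low or uneven levels. Serpinb1a, a protease inhibitor, was at 245 and 87.4 CPM at day 10 and at 25.7 and 17.4 CPM at day 20 (log2 fold change -2.98 ± 0.54, adjusted p = 0.0044). Ifitm1, an interferon-induced membrane protein, was at 418 and 150 CPM at day 10 and at 77.2 and 23.2 CPM at day 20 (log2 fold change -2.49 ± 0.53, adjusted p = 0.0154). Ramp3, a partner of calcitonin family receptors, was at 123 and 79.1 CPM at day 10 and at 32.2 and 5.79 CPM at day 20. Kctd12, Tex2 and Zbtb1 fell by 2.60, 2.33 and 1.84. Fes, a cytoplasmic tyrosine kinase, had 37 counts at day 10 and 1 at day 20, a ratio of the levels of 0.0443 with an exact counting interval from 0.0011 to 0.263. Tnn had 61 counts and 2 counts, a ratio of 0.0538 with an interval from 0.0064 to 0.203, and 1 cell of day 10 tumour 2 held 30 of its UMIs. Nabp1, a DNA-binding protein of single strands, was at 288 and 267 CPM at day 10 and at 70.8 and 95.5 CPM at day 20 (log2 fold change -1.81 ± 0.24, adjusted p = 0.000265). Of the rises outside the lists, Adgrg5, an adhesion receptor, was at 5.52 and 11.5 CPM and then at 32.2 and 49.2 CPM. Ccn1, a matrix protein, was at 257 and 343 CPM and then at 596 and 469 CPM (log2 fold change 0.79 ± 0.19).

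**Figure D3:**
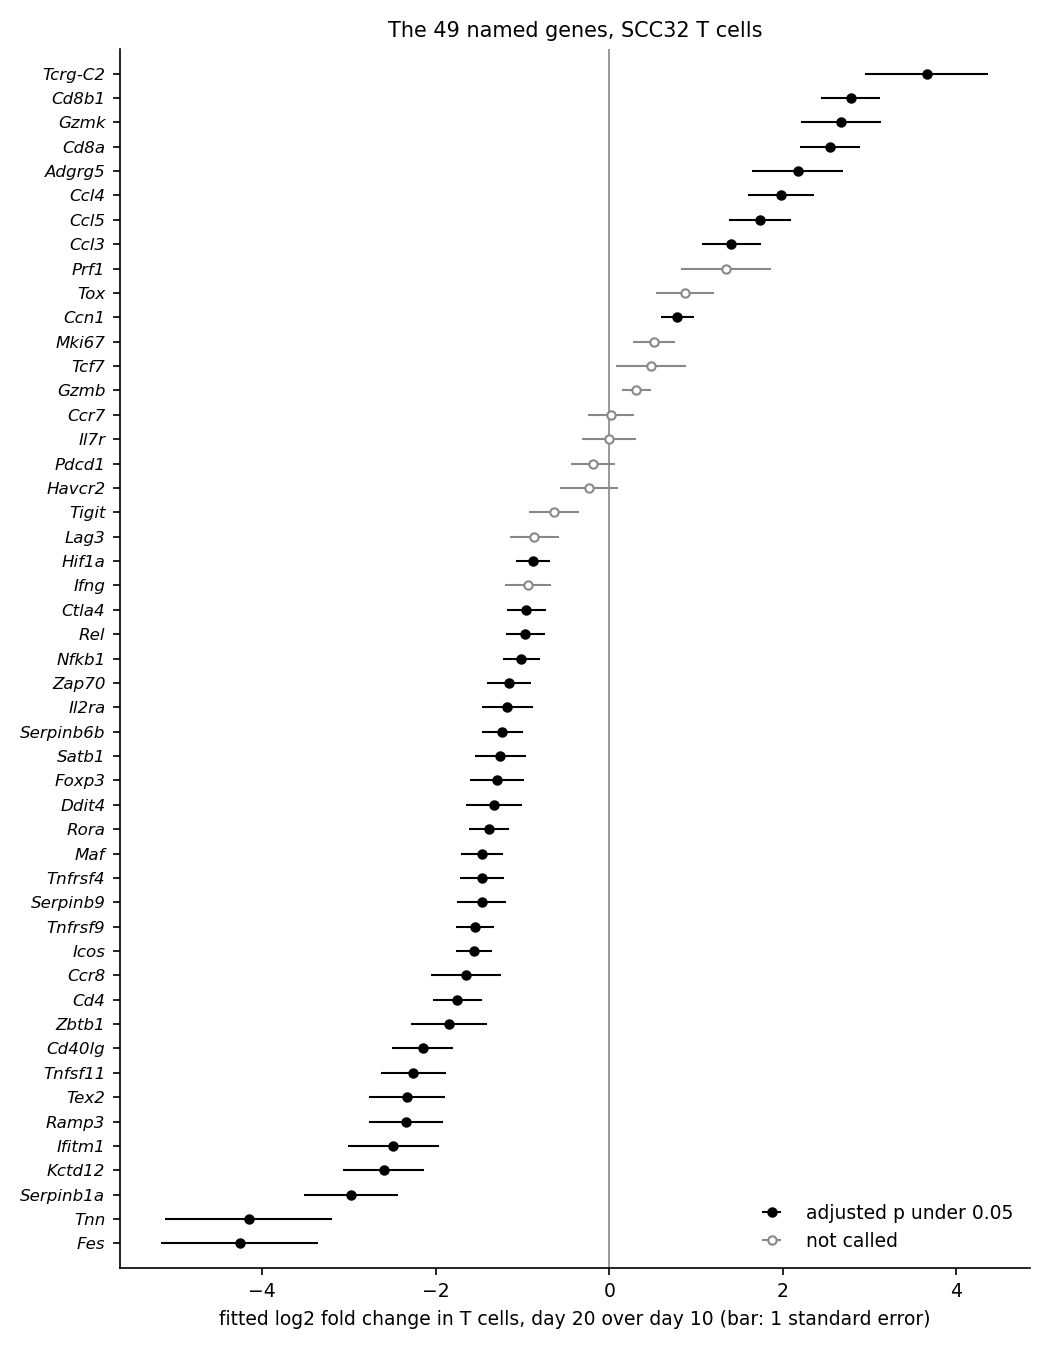
Fitted log2 fold change of day 20 over day 10 in SCC32 T cells for the 49 named genes, with 1 standard error; filled points passed the test at an adjusted p under 0.05 and open grey points did not. The called rises run from 0.79 for Ccn1 to 3.66 for Tcrg-C2, and Pdcd1, Il7r and Ccr7 lie next to 0.

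Markers of other cell types were measured in the same sums. The 14 macrophage and monocyte markers summed to 1602 and 1450 CPM at day 10 and to 1849 and 2758 CPM at day 20, against 24019 CPM in cells with high Lyz2, and none of the 11 tested was called. The sum does not stand for each marker. C1qa was lower at day 20, at 19.3 and 44.5 CPM and then at 8.58 and 5.79 CPM. C1qb was also lower, at 26.2 and 47.8 CPM and then at 21.5 and 11.6 CPM. For Csf1r and Apoe the days overlapped. The 9 fibroblast and pericyte markers summed to 494 and 712 CPM at day 10 and to 442 and 353 CPM at day 20. The 6 NK cell markers summed to 44.1 and 42.9 CPM at day 10 and to 88.0 and 86.8 CPM at day 20, with the defining marker Ncr1 at 1.38, 1.65, 2.15 and 0 CPM. The 9 dendritic markers summed to 252, 255, 614 and 237 CPM. The part of free or foreign RNA in the called changes was not tested.

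Because the CD4 share was lower at day 20, the called genes were set beside a comparison of CD4 with CD8 T cells in tumours that share no cell with SCC32. It used 11 tumours of SCC31, SCC35, SCC37 and SCC40, each giving a CD4 and a CD8 sum, with the tumour as a block, and was added after the SCC32 result was seen. edgeR called 117 of 1893 genes there (6.18%), 75 higher in CD4 cells (3.96%) and 42 higher in CD8 cells (2.22%). Of the 64 genes lower at day 20 in SCC32, 43 could be tested there. Of these 27 were called higher in CD4 cells and 0 higher in CD8 cells, with a median log2 difference of 0.84 against 0 over all tested genes. Tnfsf11, Tnfrsf4 and Maf were the furthest toward CD4, with log2 differences of 3.32, 3.30 and 3.01. Of the 11 genes higher at day 20, 4 could be tested, and Ccl5 was higher in CD8 cells with a log2 difference of -2.93 (adjusted p = 4.59e-06).

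A smaller group of falling genes had no call between CD4 and CD8 cells. Tnfrsf9 had a CD4 over CD8 log2 difference of 0.23 (adjusted p = 0.486), Serpinb9 of -0.29 (adjusted p = 0.541), Serpinb6b of 0.10 (adjusted p = 0.899) and Satb1 of -0.61 (adjusted p = 0.176). A p that misses the threshold does not show that the classes have the same level. Gzmb, which was not called between the days, was called higher in CD8 cells there, with a CD4 over CD8 log2 difference of -2.35 (adjusted p = 0.000245). Ifng was called higher in CD4 cells (log2 difference 2.09, adjusted p = 0.000613).

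**Figure D4:**
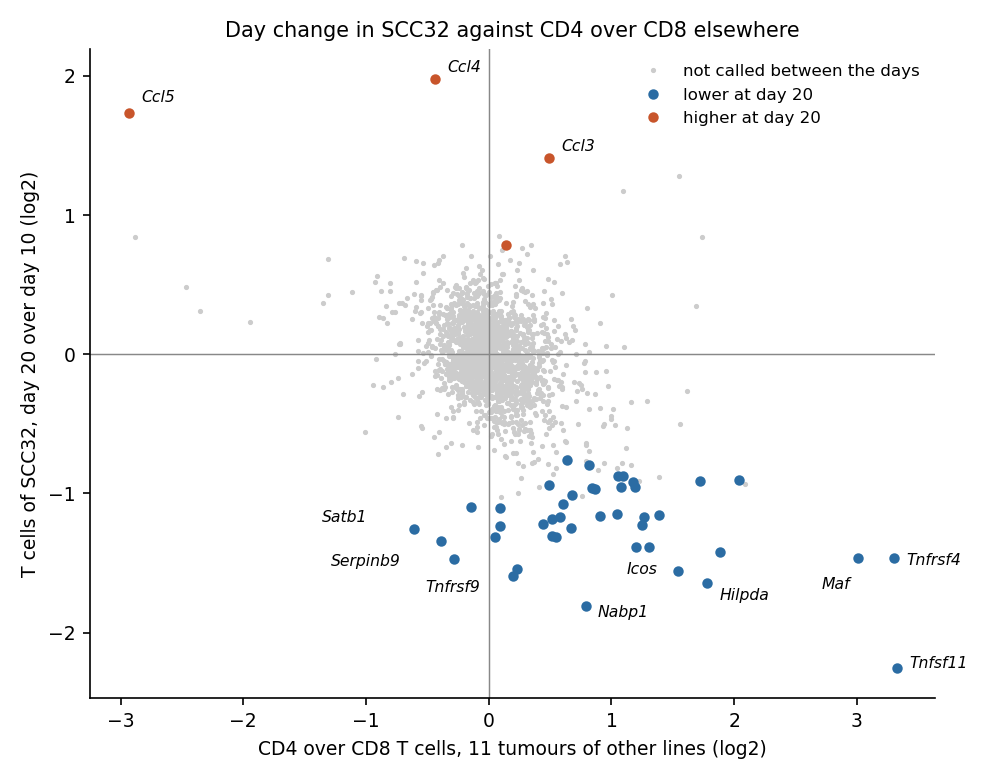
Log2 fold change between the days in SCC32 T cells (vertical) against the log2 difference of CD4 over CD8 T cells in 11 tumours of other lines (horizontal); each point is 1 of 1893 genes tested in both. Genes lower at day 20 (blue) lie mostly on the CD4 side, with Tnfrsf9, Serpinb9 and Satb1 near or left of 0, and Ccl5 lies far on the CD8 side.

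Within CD8 cells, taken as cells with a CD8 UMI and none of Cd4, no gene passed the test. The sums held 24 and 28 cells at day 10 and 47 and 89 cells at day 20, with 84984 to 242493 UMIs, so 1 count was worth 4.12 to 11.8 CPM. edgeR called 0 of 2341 genes (0%), with 156 at an unadjusted p under 0.05, and DESeq2 called 0 with 53 at an unadjusted p under 0.05. The values below therefore stand as levels, with unadjusted p beside the adjusted one. Without day 10 tumour 1 there were 11 calls and without day 10 tumour 2 there were 10.

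Pdcd1 was at 70.6 and 94.9 CPM in CD8 cells at day 10 and at 196 and 243 CPM at day 20 (log2 fold change 1.29 ± 0.41, unadjusted p = 0.0059, adjusted p = 0.565 by edgeR). Gzmk was at 47.1 and 43.2 CPM and then at 138 and 173 CPM (log2 fold change 1.69 ± 0.59, adjusted p = 0.565). Top2a, an enzyme of dividing cells, was at 177 and 164 CPM and then at 420 and 421 CPM (log2 fold change 1.21 ± 0.31, adjusted p = 0.476). In each of these the day 20 tumours were both above the day 10 tumours. Of the 28 cell cycle genes tested in CD8 cells 26 had a positive fold change, with a median of 0.72 against 0.00 over all 2341 genes. In CD4 cells, with 1 day 20 tumour in the fit, 9 of 28 had a positive fold change and the median was -0.51.

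Klf2, a factor that keeps T cells recirculating, was at 459 and 311 CPM in CD8 cells at day 10 and at 134 and 132 CPM at day 20 (log2 fold change -1.61 ± 0.35, unadjusted p = 0.0002, adjusted p = 0.34). Ccr7, which guides cells to lymph nodes, was at 177 and 138 CPM and then at 90.6 and 41.2 CPM (log2 fold change -1.35 ± 0.44, adjusted p = 0.565). Satb1 was at 341 and 155 CPM and then at 100.2 and 61.9 CPM (log2 fold change -1.68 ± 0.44, adjusted p = 0.476). Of 14 stem-like and memory genes tested, 3 had a positive fold change and the median was -0.92. In CD4 cells 6 of 14 had a positive fold change and the median was -0.56. Klf2 went the other way in CD4 cells, at 75.3 and 139 CPM at day 10 and at 396 CPM in day 20 tumour 1. Its log2 fold change there was 1.90 ± 0.44, and over all T cells 0.35 ± 0.22. Single T cells held up to 29 and 14 Klf2 UMIs at day 10 and up to 22 and 9 at day 20. The CD8 sums together held 75 Klf2 counts at day 10 and 60 at day 20, so 1 cell can weigh heavily in a class level.

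Tnfrsf9 was lower at day 20 in both classes when the cells were taken apart. In CD8 cells it was at 200 and 173 CPM at day 10 and at 100.2 and 82.5 CPM at day 20 (log2 fold change -1.11 ± 0.38, adjusted p = 0.565). In CD4 cells it was at 522 and 400 CPM at day 10 and at 181 CPM in day 20 tumour 1 (log2 fold change -1.37 ± 0.41, adjusted p = 0.653). Neither class passed the test. Nabp1 in CD8 cells was at 153 and 181 CPM and then at 52.5 and 66.0 CPM. Gzmb in CD8 cells was at 694 and 932 CPM and then at 1369 and 1101 CPM, and Ccl5 at 2718 and 1459 CPM and then at 1870 and 6132 CPM, where the days overlapped.

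The 64 genes lower in all T cells had a median log2 fold change of -0.56 in CD8 cells over the 36 that could be tested there, and the same 36 had -1.15 in all T cells. In CD4 cells the median was -0.77 over 61 genes, against -1.29 in all T cells. The median over all tested genes was 0.00 in CD8 cells and -0.03 in CD4 cells. The class sums are made of the same cells as the T cell sums, so these values are set side by side and not tested. The 64 were chosen by their change in all T cells, which favours larger changes there.

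Genes of antigen-presenting cells were also uneven between the days in the CD8 sums, with no call. Il1b, a myeloid cytokine, was at 0 CPM in both day 10 sums and at 148 and 82.5 CPM at day 20 (unadjusted p = 0.00029, adjusted p = 0.34). H2-Eb1, a class II antigen presentation gene, was at 11.8 and 25.9 CPM and then at 286 and 169 CPM (adjusted p = 0.532). In the same CD8 sums the macrophage and monocyte markers were at 2671 and 2037 CPM at day 10 and at 2848 and 3423 CPM at day 20, and the dendritic markers at 70.6 and 147 CPM and then at 563 and 293 CPM. Over all T cells Il1b was at 78.6 and 28.0 CPM at day 10 and at 107 and 72.3 CPM at day 20, where the days overlapped (adjusted p = 0.682). Single T cells held up to 28 and 2 Il1b UMIs at day 10 and up to 26 and 18 at day 20. Whether doublets or free RNA carry these genes was not tested.

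**Figure D5:**
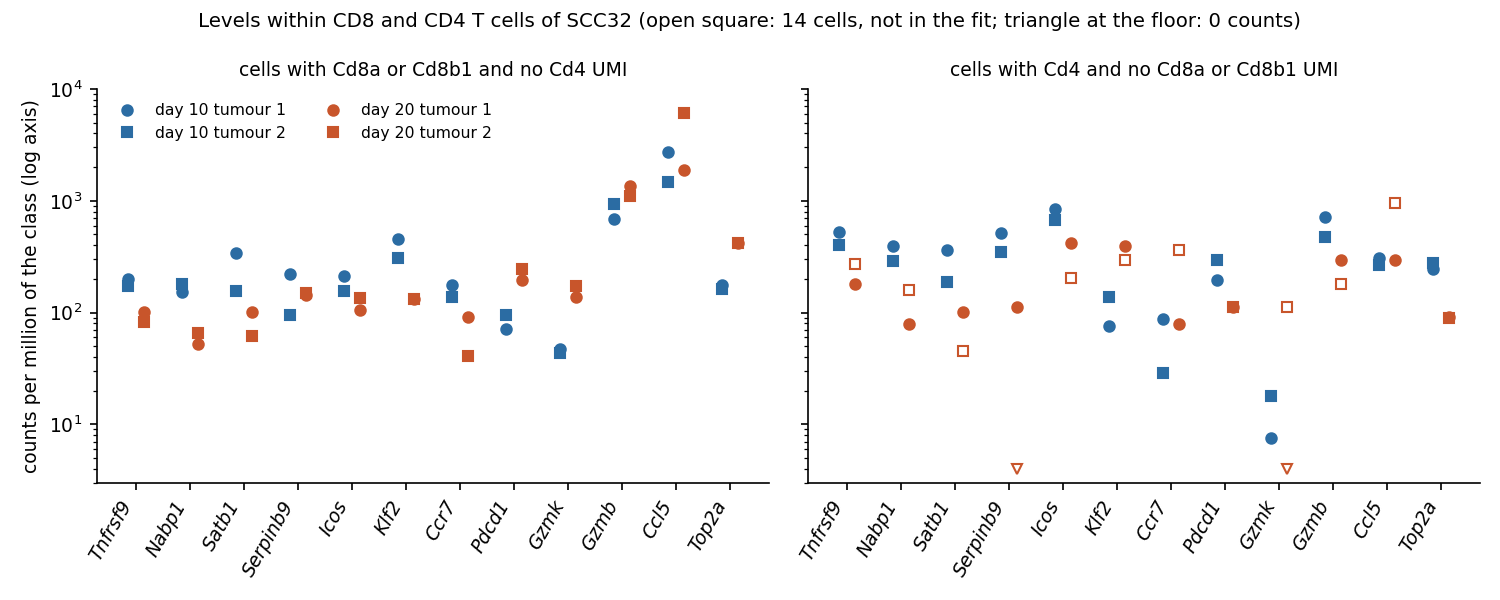
Level in CPM (log axis) of 12 genes within CD8 cells (left) and CD4 cells (right) of the day 10 (blue) and day 20 (orange) tumours; circles are tumour 1, squares tumour 2, the open square is the 14-cell sum left out of the fit, and open triangles mark 0 counts. Tnfrsf9, Nabp1 and Satb1 are lower at day 20 in both panels, while Pdcd1 is higher at day 20 on the left and lower on the right.

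Within CD4 cells, taken as cells with a Cd4 and no CD8 UMI, the comparison rested on 150 and 93 cells at day 10 and on 29 cells of day 20 tumour 1. Day 20 tumour 2 had 14 such cells and was left out by the minimum of 20, so day 20 had 1 tumour and its spread was assumed to be that of the other days. edgeR called 2 of 3995 genes (0.0501%), both higher at day 20. Lta, the cytokine lymphotoxin alpha, was at 7.53 and 14.3 CPM at day 10 and at 283 CPM at day 20 (log2 fold change 4.67 ± 0.55, adjusted p = 0.0044). It was at 67.7 CPM in the 14-cell sum, and 1 T cell of day 20 tumour 1 held 18 Lta UMIs. Fos, an immediate early factor, was at 464 and 496 CPM at day 10 and at 1518 CPM at day 20 (log2 fold change 1.64 ± 0.25), with 610 CPM in the 14-cell sum. Single T cells held up to 57 and 62 Fos UMIs at day 10 and up to 98 and 46 at day 20. The class of those cells is not given here. The count of calls ran from 1 to 80 over the settings tried.

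The 27 genes lower at day 20 that were called higher in CD4 cells of the other lines could all be tested within CD4 cells. Their median log2 fold change there was -0.50 against -1.15 in all T cells, with 22 closer to 0 and 5 as far or further from it. The 27 were chosen by their change in all T cells, which favours larger changes there. These values are therefore a description. Tnfrsf4 was at 1062 and 971 CPM in CD4 cells at day 10 and at 929 CPM in day 20 tumour 1 (log2 fold change -0.15 ± 0.32), with 542 CPM in the 14-cell sum. Tnfsf11 was at 216 and 193 CPM and then at 204 CPM (log2 fold change -0.03 ± 0.46), with 0 CPM in the 14-cell sum. Maf was at 319 and 300 CPM and then at 260 CPM (log2 fold change -0.27 ± 0.40), with 271 CPM in the 14-cell sum. The fitted errors of these 3 leave room for changes in either direction. Zap70 and Nabp1 were among the 5. Zap70 was at 266 and 246 CPM and then at 113 CPM (log2 fold change -1.20 ± 0.48, against -1.16 in all T cells), with 135 CPM in the 14-cell sum. Nabp1 was at 397 and 289 CPM and then at 79.3 CPM (log2 fold change -2.14 ± 0.52, against -1.81 in all T cells), with 158 CPM in the 14-cell sum. Serpinb6b was at 284 and 271 CPM and then at 56.6 CPM (log2 fold change -2.30 ± 0.52, adjusted p = 0.269), with 22.6 CPM in the 14-cell sum. None of these genes was called within CD4 cells.

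The day change was also tested against that of SCC35 and SCC37, whose tumours were in other libraries, so line and library cannot be told apart. Each test called 1 of 6169 genes (0.0162%). On simulated data the tests against SCC35 and SCC37 recovered 3% and 2% of genes changed by 1 on the log2 scale. Of genes changed by 2 they recovered 23% and 29%, so few calls do not show that the lines changed alike. Against SCC37 the gene was Tnfrsf9, with a difference of day changes of -2.07 ± 0.31 (SE, log2) and an adjusted p of 0.0036. In SCC37 it was at 328 and 332 CPM at day 10 and at 481 and 491 CPM at day 20, higher at day 20 where it was lower in SCC32. Against SCC35 the difference for Tnfrsf9 was -1.47 ± 0.33 and was not called (adjusted p = 0.21). The call against SCC37 was lost without day 10 tumour 1 or without day 20 tumour 2 of SCC32.

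Against SCC35 the called gene was Xcl1, the chemokine that draws cross-presenting dendritic cells, with a difference of -4.27 ± 0.76 (SE, log2) and an adjusted p of 0.0423. In SCC32 it was at 218 and 186 CPM at day 10 and at 255 and 217 CPM at day 20. In SCC35 it was at 10.2 and 64.0 CPM at day 10 and at 481 and 968 CPM at day 20. Those sums held few cells, 50 and 25 T cells at day 10 and 62 and 26 at day 20, so the day 10 levels rest on few counts. DESeq2 did not call it, and it was lost without day 10 tumour 1 and without either day 20 tumour of SCC32. It was also lost with at least 3 CD3 UMIs, with a hashtag ratio of 4, without Scrublet doublets and without cells over 6000 UMIs. For Cd8a the edgeR differences were 0.33 ± 0.73 against SCC35 and 0.80 ± 0.63 against SCC37, with adjusted p of 0.991 and 0.995. For Cd8b1 they were larger, at 1.03 ± 0.67 and 2.06 ± 0.57, and not called either (adjusted p = 0.844 and 0.567).

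The sequence before the start of the called genes was searched as a description. RefSeq promoter windows (GRCm38.p6) were matched for 5 of the 11 genes that rose and 50 of the 64 that fell, and the 250 bases before the start were read on both strands. A kappa B pattern (GGGA, any 2 bases, then TTCC) lay in 1.17% of all 27025 windows, in Gzmk among the genes that rose and in Tnn among those that fell. A Runx pattern, TGTGGT, lay in 14.2% of all windows, in Adgrg5 and Ccl3 among those that rose, and in 6 of the 50 that fell. A T-box pattern, AGGTGTGA, lay in 1.14% of all windows and in none of the matched called genes. The 200 bases before the start of Gzmk and of Ccl3 are printed 5′ to 3′ on the coding strand because both genes rose and held a match, which is in capitals (kappa B in Gzmk, Runx in Ccl3).
Gzmk, chr13:113180966-113181165, minus strand: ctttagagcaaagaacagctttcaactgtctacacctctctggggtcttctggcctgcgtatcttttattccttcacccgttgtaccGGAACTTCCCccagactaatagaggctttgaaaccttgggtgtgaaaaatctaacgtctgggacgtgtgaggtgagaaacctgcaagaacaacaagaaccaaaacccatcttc
Ccl3, chr11:83649379-83649578, minus strand: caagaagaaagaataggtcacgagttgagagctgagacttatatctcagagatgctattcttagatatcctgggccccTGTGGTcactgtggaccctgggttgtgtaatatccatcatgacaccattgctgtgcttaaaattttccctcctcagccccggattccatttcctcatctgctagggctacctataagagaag
The matches begin 113 bases and 122 bases before the start, and a match is not evidence that a factor binds there.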

How the data were processed

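The authors deposited raw, unnormalised UMI counts per cell barcode for 32285 genes and 10 hashtags in 6 libraries. Cell Ranger 6.0.0 is named in the file headers, and the mm10 build comes from the submitters' processing notes. Cells were assigned to tumours with the authors' hashtag table (53 hashed samples).

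Counts were summed per tumour and tested with edgeR 4.0.16 (R 4.3.3): TMM scaling, filterByExpr and the quasi-likelihood test over all SCC32 tumours of days 6 to 20 with at least 20 cells, with Benjamini-Hochberg adjustment over all genes tested. Cd3e, Cd3d, Cd3g and Lyz2 were not tested in any fit, nor Cd8a, Cd8b1 and Cd4 within the classes they define. DESeq2 1.42.0, another scaling, other gates and Scrublet (scanpy 1.11.5) were alternatives. In the main values no doublet caller was used beyond the hashtag rule. Tumours are the replicates. The edgeR p-values rest on a spread estimated over all tumours of a fit, other days included, and shared in part across genes. In the T cell fit 8 tumours left 4 residual degrees of freedom, and the other genes lent 19.3. The spread between the 2 day 10 and 2 day 20 tumours alone is therefore not what they measure.

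The fit was tested on simulated data for the T cell comparison (6603 genes, 100 changed at each size): 37% of genes changed by 1 on the log2 scale were recovered, and 82% of those changed by 2. For CD8 cells (2346 genes) the recovery was 23% and 89%, and for CD4 cells (3999 genes) 9% and 44%. For the day change against another line (6172 genes) it was 3% and 23% with SCC35, and 2% and 29% with SCC37.

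Genes were named by rule: a set of coreceptor, exhaustion, memory and effector genes; up to 4 called members of each of 16 gene lists; and the 10 largest rises and falls among called genes with at least 30 counts and no overlap between days, leaving out receptor segments. 1 gene of the rule is not reported here. Other genes, such as Nabp1, Srgn, Tgfb1, Tnfrsf18, Klf2, Top2a, Il1b, H2-Eb1, Lta, Fos, Xcl1 and the receptor segments, were chosen after their values were seen. The members and lists were chosen with earlier results of these data known.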

Additional observations from a re-analysis of the deposited data

Results flagged for a closer look

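The day change of Tnfrsf9 in T cells differed between SCC32 and SCC37 in a test of that difference, by -2.07 (log2). The day change of Xcl1 differed between SCC32 and SCC35 in the same kind of test, by -4.27 (log2). Their levels by tumour are given with the comparisons above.

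The day 0 samples of SCC32, for which no mouse is listed and which entered no comparison, held 12 cells that passed the T cell gate among 2280 assigned cells (0.526%), where a count of 0 would allow a share of up to 0.132%. Of the 12 cells, 8 had over 6000 UMIs, and their median depths were 7474 and 10176 UMIs in the 2 samples. The medians of all assigned cells of these samples were close to this, at 8889 and 8664 UMIs. For T cells at day 10 they were 1901 and 2254 UMIs. With a hashtag ratio of 4, 2 and 0 cells of the 2 day 0 samples passed the T cell gate.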

How the results depend on the processing

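No call of the 75 in T cells changed direction under a setting run in which the gene was fitted. The count of 75 calls was 28 with DESeq2, 2 with all lines and libraries in the fit, 44 with a hashtag ratio of 4, 48 without Scrublet doublets, and 6 to 101 with 1 tumour left out; the other settings gave 67 to 110. In CD8 cells the count of 0 was 11 with no filter on low counts, 2 with only the tumours of days 10 and 20, and 0 to 11 with 1 tumour left out. In CD4 cells the count of 2 was 1 with RLE size factors, with DESeq2, with all lines in the fit and with tumours of at least 10 cells. It was 20 with no filter, 21 with only days 10 and 20, 5 with at least 3 CD3 UMIs, 7 with 1 Lyz2 UMI allowed, 12 with a hashtag ratio of 4, 9 under the strict cell filter, 36 without Scrublet doublets, 9 regardless of the other coreceptor, 80 without cells over 6000 UMIs, and 6 with either day 10 tumour left out. Leaving out day 20 tumour 1 could not be fitted there. Against SCC35 the count of 1 was 0 with DESeq2, with a hashtag ratio of 4, without Scrublet doublets and without cells over 6000 UMIs, 24 with no filter, 5 with at least 3 CD3 UMIs, and 0 to 2 with 1 tumour left out. Against SCC37 it was 21 with no filter, 2 without cells over 6000 UMIs, and 0 to 1 with 1 tumour left out. The CD4 over CD8 comparison of other lines, with 117 calls, gave 289 with no filter, 202 with tumours of at least 20 cells and 58 without the mix library. The settings on 6000 UMIs, on 10 cells, on day 6 and all of the last comparison were chosen after seeing the data. The causes of these moves were not tested.

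The replicate numbers did not pair the samples: the correlation of same-numbered tumours between days ran from -0.083 to 0.03. With a replicate block the T cell count was 68 and the CD4 count 13, with 0 calls in CD8 cells and 1 against each other line.

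The difference in the CD4 share was -22.7 percentage points with thinned cells against -35.4, and that of the Foxp3 share was 0.029 with 1 Lyz2 UMI allowed against -2.63. Leaving out 1 tumour gave 26.4 to 56.3 points for the CD8 share, -42.9 to -27.9 for the CD4 share, -4.23 to -1.03 for the Foxp3 share and -17.9 to -4.78 for the T cell share. Reversals of log2 fold change came only in named genes that were not called. With 1 tumour left out, Pdcd1 ran from -0.43 to 0.067 (0.061 without day 20 tumour 1), Havcr2 from -0.64 to 0.16, Il7r from -0.37 to 0.53 and Ccr7 from -0.22 to 0.31. Havcr2 was at 0.021 with at least 3 CD3 UMIs. Il7r was at 0.0048 with RLE, 0.0013 with DESeq2, 0.001 with the replicate block, 0.002 with only days 10 and 20, 0.0041 without day 6, 0.33 with a hashtag ratio of 4, 0.074 under the strict filter, 0.091 without Scrublet doublets and 0.35 without cells over 6000 UMIs. Ccr7 was at -0.018 with no filter. Of 620 alternative values of the 37 named and called genes, 446 stayed past the threshold, 174 did not and 0 reversed. Of 204 such values of the 12 named genes without a call, 6 passed it and 18 reversed.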

Other observations

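For most genes that fell, day 10 was also above day 6 and day 16. In 52 of the 64 genes lower at day 20 (81.3%) both day 10 tumours were above all 4 tumours of days 6 and 16. Over all tested genes this held for 643 of 6600 (9.74%). The choice of the 64 used the same day 10 values, which favours this, so the count is a description. Icos, for example, was at 293 and 285 CPM at day 6, at 710 and 499 CPM at day 10, and at 329 and 349 CPM at day 16. Tnfrsf9 was at 272 and 245 CPM at day 6 and at 247 and 270 CPM at day 16, against 531 and 420 CPM at day 10. Foxp3 was at 11.7 and 18.3 CPM at day 6 and at 36.6 and 26.3 CPM at day 16, against 106 and 89.0 CPM at day 10. The day 6 T cells were deeper, with median counts of 3767 and 3163 UMIs, and 21 of 67 and 17 of 55 of them had over 6000 UMIs.

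In 9 of the 11 genes higher at day 20 (81.8%) both day 16 tumours were above both day 10 tumours. Over all tested genes this held for 1378 of 6600 (20.9%). The choice of the 11 used the same day 10 values, which favours this, so the count is a description. Gzmk was at 86.9 and 26.3 CPM at day 16, and Cd8b1 at 311 and 199 CPM. Ccl3 was not among them, at 36.6 and 43.8 CPM at day 16 against 75.9 and 61.0 CPM at day 10.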
